A study of Mus musculus with 12 samples.

Results

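Non-endothelial stromal cells (SCs) of gut-draining mesenteric lymph nodes (mLN) were compared between specific pathogen-free (SPF) and germ-free (GF) mice. The 6 libraries were chosen by their labels, 3 from SPF and 3 from GF mice, out of 12 RNA-seq libraries in all. The other 6 come from skin-draining peripheral lymph nodes (pLN) of mice under the same 2 housing conditions, 3 libraries each. All mice were of the BALB/c strain. No age is labelled for single libraries, and the ranges of age that the study states for SPF and for GF mice overlap without being the same. In the methods, the BALB/c strain kept under SPF conditions is designated CD90.1, after an allele of Thy1, and was bred in Braunschweig. The methods do not tie this strain to single libraries. GF mice were derived by caesarean section in Hannover, lived in isolators in Hannover or Braunschweig, and have no allele named. Housing and colony therefore changed together between the groups, with any difference in age or in the Thy1 allele, and cannot be told apart. Cells had been sorted after enzymatic digestion as CD45-CD24-CD31- cells that carry podoplanin (gp38, Pdpn), so each library is a bulk of several SC subsets. The question was what a microbiota changes in the transcriptome of SCs that drain the gut.

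Lymph node SCs build the scaffold on which lymphocytes move. In the T zone, fibroblastic reticular cells (FRCs) secrete CCL19 and CCL21, ligands of CCR7 that guide T cells and dendritic cells, whereas CD34+ SCs lie in the adventitia of vessels and in the capsule. In mLN, SCs also make retinoic acid through Aldh1a2. Microbes can reach such cells directly through pattern recognition receptors or indirectly through cytokines, interferons, absorbed metabolites and hormones. Glucocorticoids are among these hormones. They enter cells, bind a nuclear receptor and switch on a set of genes shared by many tissues, including Fkbp5, Tsc22d3 and the clock gene Per1.

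Levels are given as RPKM (reads per kilobase of exon and per M mapped reads), always for replicates 1, 2 and 3 in this order. Differences are SPF minus GF on the log2(RPKM + 1) scale ± SE from limma, a linear model fitted to all tested genes, which understates changes of genes near 1 RPKM. A gene was called when the Benjamini-Hochberg adjusted p was below 0.05 and the change at least 2-fold. Nothing in the labels says that libraries of a group came from separate mice, so p-values measure the spread between these libraries only.

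Depth, summed over reads recovered from the RPKM, lay between 8.13 and 9.79 M reads in the SPF and between 8.16 and 14.1 M reads in the GF libraries. The first principal component of the 6 libraries held 47.7% of the variance, with scores of 7.74 to 21.1 in SPF and of -14.1 to -12.2 in GF libraries. The sort gene Pdpn stood at 58.1 to 66.3 RPKM in SPF and 53.9 to 61.4 RPKM in GF libraries. Among defining endothelial and leukocyte genes, Pecam1 was between 0.481 and 1.58 RPKM, Prox1 at most 0.204 RPKM and Lyz2 at most 2.60 RPKM in any mLN library. The 6 of 23 leukocyte markers present in the table summed to 5.46 to 13.2 RPKM in SPF and 6.68 to 14.5 RPKM in GF libraries (exact permutation p = 0.7, two-sided). Blood endothelial markers summed to 669 to 733 RPKM in SPF and 520 to 582 RPKM in GF libraries (exact permutation p = 0.1, the smallest possible here). Most of this sum was Tek and Ly6c1, which is also listed below among markers of CD34+ SCs, while Cdh5 and Kdr stayed below 1 RPKM. Plvap, a gene of fenestrated endothelium in the blood endothelial list, had 14.01, 9.55 and 15.3 RPKM in SPF and 28.2, 14.5 and 22.6 RPKM in GF libraries, and its groups overlapped. Mesothelial markers, mainly Wt1, summed to 7.26 to 8.63 RPKM in SPF and 9.47 to 11.6 RPKM in GF libraries (exact permutation p = 0.1). Y-linked Ddx3y was measured in all 6 libraries at 13.9 to 20.3 RPKM, although the methods name female mice unless stated otherwise. Summed Y-linked check genes were at 27.2, 36.8 and 30.5 RPKM in SPF, against 25.6, 21.7 and 24.8 RPKM in GF libraries. The groups did not overlap (exact permutation p = 0.1). The part of these marker differences in the results was not tested.

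Among 9758 tested genes 70 were called, which is 0.717% of them. Of these, 23 were higher in SPF mice, 0.236% of tested genes, and 47 were lower, 0.482%. Counts of called list members are to be read against these shares. Members of all lists were chosen with earlier results of these data known, so their counts are descriptions and no independent test. The adjusted p alone passed for 443 genes (4.54%), 242 higher (2.48%) and 201 lower (2.06%). Most of these differences were thus under 2-fold. An unadjusted p below 0.05 was found for 1591 genes, 16.3% of those tested. Across all tested genes the median change was 0.0136. The 3 SPF and 3 GF libraries did not overlap for 69 of the 70 called genes, and for 25.9% of all tested genes (14.8% higher and 11.1% lower). Highest in SPF mice by change were Zhx2, Oaf, G530011O06Rik, F3 and Serpine2. Lowest were Gm12505, Tsc22d3, Acta2, Ddit4 and Wee1. Leaving out 1 of the 6 mLN libraries at a time gave between 61 and 99 called genes, the lowest without GF replicate 3 and the highest without GF replicate 2.

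**Figure D1:**
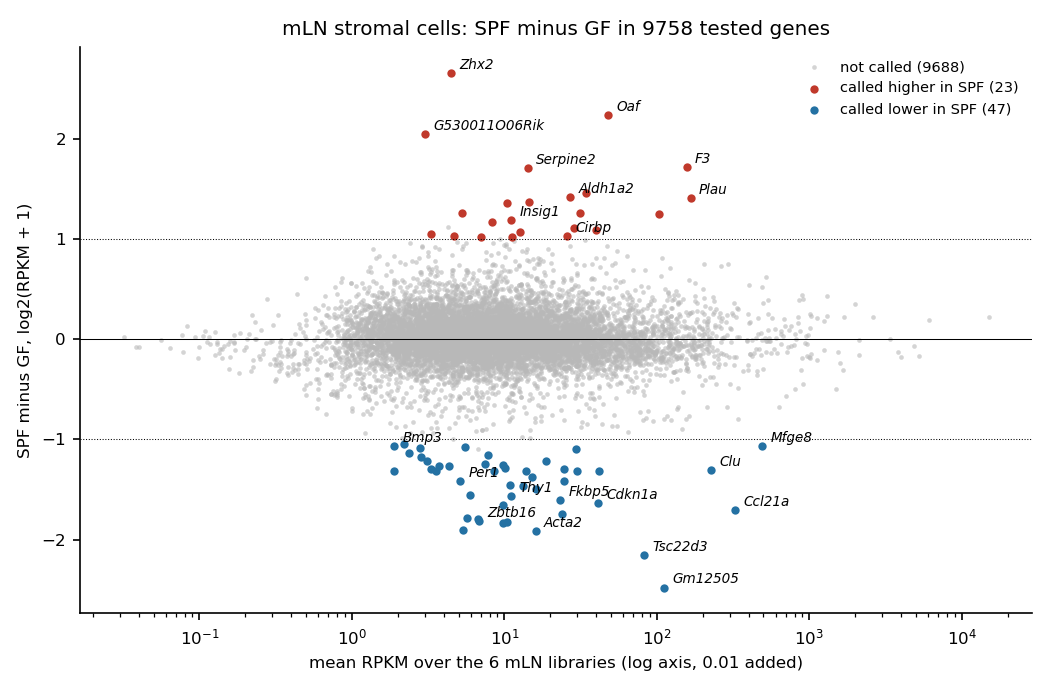
Change of each tested gene between SPF and GF mLN (y axis, SPF minus GF, log2(RPKM + 1)) against its mean RPKM over the 6 mLN libraries (log x axis). Red and blue points are the 23 called higher and the 47 called lower, dotted lines mark a 2-fold change, and called genes lie at mean levels from 1.87 to 491 RPKM.

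A group among the lower genes were targets of the glucocorticoid receptor. This list, too, was chosen with earlier results of these data known. Of 17 tested members 7 were called lower and 0 higher, against 0.482% of all tested genes called lower. The list median was -0.80 against 0.0136 over all genes. Adjusted p alone passed for 12 members, all lower, against 2.06% of tested genes. Without any single library, at least 7 of the 17 were called lower.

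Tsc22d3, which encodes the glucocorticoid-induced leucine zipper protein GILZ, had 29.2, 31.1 and 28.7 RPKM in SPF against 148, 123 and 137 RPKM in GF libraries. Its change was -2.16 ± 0.13 (limma adjusted p = 1.32e-07), and the lowest GF library was far above the highest SPF library. Tsc22d3 lies on chromosome X from 140539528 to 140600659 (GRCm38). Fkbp5, a co-chaperone that dampens the receptor, had 15.3, 8.48 and 9.54 RPKM in SPF and 28.7, 42.5 and 34.9 RPKM in GF libraries (-1.61 ± 0.20, limma adjusted p = 0.000324). Zbtb16, a zinc finger transcription factor also known as PLZF, had 2.46, 1.998 and 2.38 RPKM in SPF and 6.54, 17.2 and 10.2 RPKM in GF libraries (-1.81 ± 0.25, limma adjusted p = 0.000552). Its SPF libraries were tight, whereas GF replicate 2 stood above both other GF libraries. The Kruppel-like factor gene Klf15 was at 3.83, 4.47 and 4.27 RPKM in SPF and 16.9, 12.8 and 16.6 RPKM in GF libraries (-1.66 ± 0.15, limma adjusted p = 1.27e-05).

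Pdk4, the kinase that shuts pyruvate dehydrogenase in fasting, had 7.61, 7.83 and 7.805 RPKM in SPF and 30.1, 17.8 and 24.8 RPKM in GF libraries (-1.50 ± 0.21, limma adjusted p = 0.000784). The cyclin-dependent kinase inhibitor gene Cdkn1a (p21) was at 23.2, 14.98 and 19.98 RPKM in SPF and 79.2, 48.2 and 60.9 RPKM in GF libraries (-1.64 ± 0.18, limma adjusted p = 6.75e-05). In both genes the groups were separate. Under 2-fold but past the adjusted p were the metallothionein genes Mt2 (-0.89) and Mt1 (-0.67), the EGF receptor inhibitor Errfi1 (-0.80), Map3k6 (-0.78) and Klf9 (-0.77). Mt1 and Mt2 are close copies whose reads may be shared. The kinase gene Sgk1 (-0.12, limma adjusted p = 0.668) and the phosphatase gene Dusp1 (-0.15, limma adjusted p = 0.524), other classical targets, did not pass. In pLN the same list had a median of -0.77, and its values there are given further on.

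**Figure D2:**
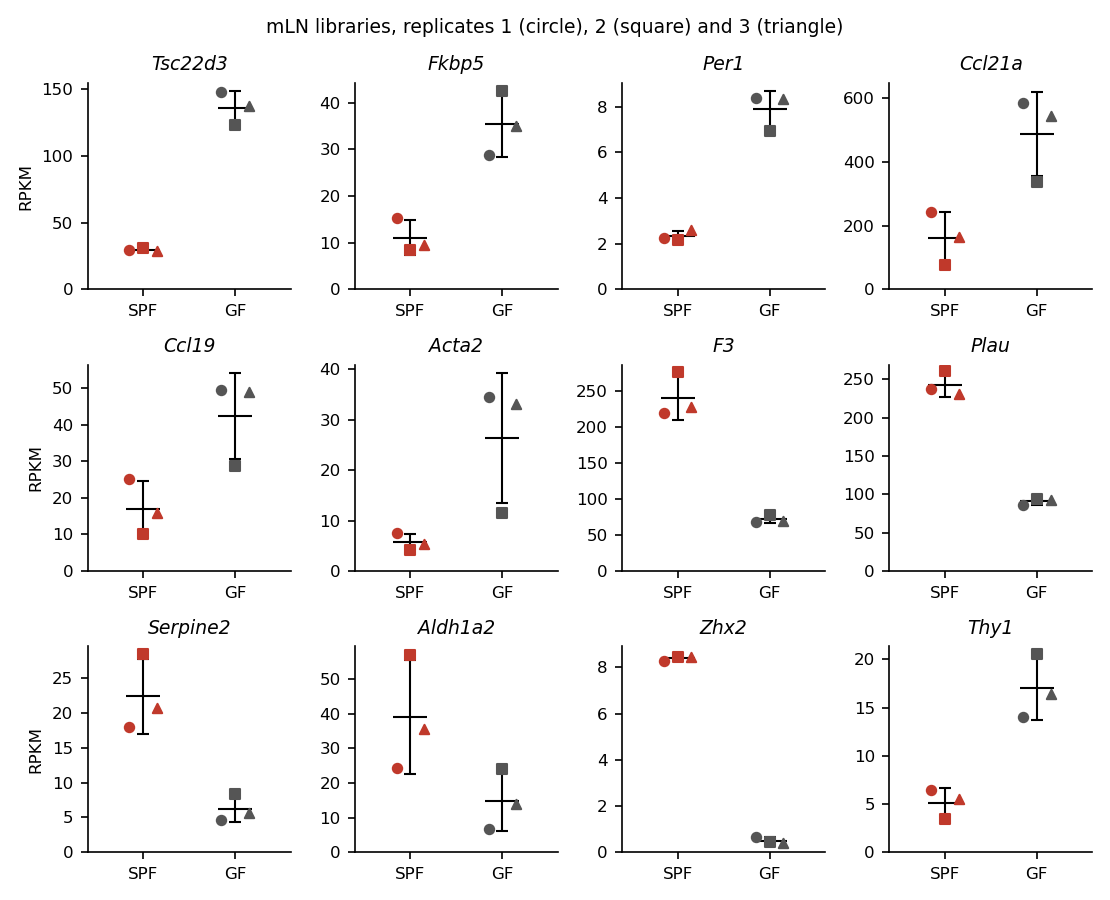
RPKM of 12 named genes in the mLN libraries of SPF (left, red) and GF mice (right, grey), with replicates by symbol, horizontal bars for means and error bars for SD (n = 3 each), y axes from 0. SPF and GF libraries are separate for all 12 genes, least so for Aldh1a2, and GF replicate 2 is the lowest GF library for Ccl21a, Ccl19 and Acta2.

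Per1, a repressor of the circadian clock that glucocorticoids also induce, had 2.23, 2.16 and 2.603 RPKM in SPF and 8.38, 6.94 and 8.34 RPKM in GF libraries. The change was -1.41 ± 0.12 (limma adjusted p = 1.24e-05), more than 10 times its SE. Per1 lies on chromosome 11 from 69095217 to 69109960. One of its start sites has a canonical E-box, the letters CACGTG bound by the clock activators CLOCK and ARNTL, in capitals in the RefSeq window of 300 bases (GRCm38.p6, plus strand, chr11:69098699-69098998).
Per1: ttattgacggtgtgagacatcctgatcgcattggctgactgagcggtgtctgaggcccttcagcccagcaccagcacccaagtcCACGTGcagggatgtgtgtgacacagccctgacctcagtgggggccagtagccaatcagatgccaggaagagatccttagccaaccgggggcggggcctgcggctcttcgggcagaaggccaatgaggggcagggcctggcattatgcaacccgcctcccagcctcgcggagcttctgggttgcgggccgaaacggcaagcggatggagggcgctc
The match begins 166 bases before the start. CACGTG, which reads the same on both strands, is held by 7.15% of all 32851 promoter windows. Counted by gene, it was held by 5 of 31 lower genes with a window (16.1%; Bcl6, Fkbp5, Hsph1, Klf15 and Per1) and 1 of 14 higher genes (7.14%), against 12.2% of tested genes and 8.09% of all genes.

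On the log2(RPKM + 1) scale, which understates changes near 1 RPKM, other clock genes changed by less. Of 10 tested clock repressor and output genes 1 was called, Per1. The list of 5 activators also held Nfil3, itself not an activator. Limma and voom on recovered reads called none of these 5, and only Nfil3 had an unadjusted p below 0.05. Past the adjusted p alone were Cry1 (-0.91, limma adjusted p = 0.000552) and Per2 (-0.87), both repressors, and Nfil3 (-0.84), which antagonises the D-box activators. Nr1d1, the nuclear receptor REV-ERB alpha that represses Arntl, went the other way at 0.90 (limma adjusted p = 0.00121). Nr1d1 had 2.79, 1.74 and 1.77 RPKM in SPF and 0.6299, 0.588 and 0.726 RPKM in GF libraries. At such levels its change is understated, so its size cannot be ranked against that of Per1. The albumin D-box factor gene Dbp had 0.792, 0.691 and 1.51 RPKM in SPF and 0.676, 0.893 and 0.752 RPKM in GF libraries (0.15 ± 0.14, limma adjusted p = 0.645), and Arntl itself had 14.8, 19.6 and 15.4 RPKM in SPF and 13.6, 13.8 and 12.02 RPKM in GF libraries (0.31 ± 0.15, limma adjusted p = 0.326). At which time of day the nodes were taken is not stated, and its part in these values was not tested.

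Ddit4 and Wee1 were among the lowest genes. Ddit4 (REDD1), a stress-induced inhibitor of the kinase complex mTORC1, had 2.702, 0.916 and 1.45 RPKM in SPF and 11.6, 6.2 and 9.05 RPKM in GF libraries (-1.90 ± 0.21, limma adjusted p = 0.000104). Wee1, the kinase that holds back entry into mitosis, was at 3.08, 4.77 and 3.31 RPKM in SPF and 18.02, 12.6 and 16.7 RPKM in GF libraries (-1.83 ± 0.18, limma adjusted p = 2.21e-05). Groups did not overlap in either gene. The polo-like kinase gene Plk2, on the other hand, was higher, with 16.7, 26.9 and 20.8 RPKM in SPF and 6.801, 8.95 and 7.01 RPKM in GF libraries (1.37 ± 0.20, limma adjusted p = 0.000784). None of 11 tested cell cycle genes was called by limma or by voom on recovered reads, 1 had an unadjusted p below 0.05, and their changes ran from -0.19 to 0.35.

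Several markers of T zone FRCs were lower in SPF mice. Of 18 tested members 4 were called lower and 0 higher, against 0.482% of tested genes called lower, and the median was -0.26. Without GF replicate 2 there were 5, and without GF replicate 3 there were 3. Ccl21a had 242, 76.6 and 165 RPKM in SPF and 585, 338 and 543 RPKM in GF libraries (-1.70 ± 0.31, limma adjusted p = 0.00451). Its close copies can share or lose reads, so its level is uncertain. Ccl21a is also made by lymphatic endothelium, whose defining genes Prox1, Lyve1 and Flt4 stayed below 0.46 RPKM in every mLN library. Ccl19 was at 25.1, 9.99 and 15.8 RPKM in SPF and 49.4, 28.8 and 48.99 RPKM in GF libraries (-1.32 ± 0.27, limma adjusted p = 0.00917), and it was not called without GF replicate 3 (-1.20, limma adjusted p = 0.0595). Clusterin, Clu, a secreted chaperone, had 175, 84.7 and 136 RPKM in SPF and 371, 228 and 363 RPKM in GF libraries (-1.30 ± 0.23, limma adjusted p = 0.00356). Within each group replicate 2 was the lowest library for these 3 genes, though no GF library fell into the SPF range.

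Grem1, a secreted antagonist of bone morphogenetic proteins (BMPs), was the fourth, with 2.24, 1.24 and 1.85 RPKM in SPF and 6.64, 4.36 and 6.08 RPKM in GF libraries (-1.27 ± 0.15, limma adjusted p = 0.000211). Among 7 tested markers of lymphoid tissue organizer and marginal reticular cells only Mfge8, which bridges dying cells to phagocytes, was called lower. It had 377, 246 and 326 RPKM in SPF and 739, 502 and 756 RPKM in GF libraries (-1.07 ± 0.17, limma adjusted p = 0.00176), and fell short of 2-fold without SPF replicate 2 (-0.90), GF replicate 1 (-0.98) or GF replicate 3 (-0.96). Cxcl13, which draws B cells, had 4.66, 2.37 and 5.33 RPKM in SPF and 4.04, 9.21 and 9.19 RPKM in GF libraries (-0.71 ± 0.25, limma adjusted p = 0.152), and here the groups overlapped. The survival factor Il7 (-0.20 ± 0.22, limma adjusted p = 0.712) and Cxcl12 (-0.32 ± 0.27, limma adjusted p = 0.617) overlapped as well.

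The contractile genes Acta2 and Tagln were lower in SPF mice. Smooth muscle actin, Acta2, had 7.498, 4.22 and 5.36 RPKM in SPF and 34.5, 11.5 and 33.1 RPKM in GF libraries (-1.92 ± 0.30, limma adjusted p = 0.0015). The actin-binding protein gene Tagln was at 6.95, 3.44 and 5.38 RPKM in SPF and 22.2, 10.1 and 17.3 RPKM in GF libraries (-1.46 ± 0.24, limma adjusted p = 0.00222). GF replicate 2 lay nearest to the SPF libraries in both. Of 10 tested perivascular and smooth muscle markers these 2 were called lower, against 0.482% of all tested genes, 2 had positive changes, and 3 were called without GF replicate 2. Summed over the list, perivascular markers stood at 63.7, 33.9 and 48.9 RPKM in SPF and 136, 50.3 and 114 RPKM in GF libraries (exact permutation p = 0.2, two-sided, smallest possible 0.1). Rgs5, a defining pericyte gene, was low, with 3.06, 0.628 and 2.12 RPKM in SPF and 2.68, 0.739 and 2.89 RPKM in GF libraries (-0.09 ± 0.31, limma adjusted p = 0.921). In bulk libraries fewer cells of a type and less RNA per cell cannot be told apart, and the part of the perivascular signal in the T zone values was not tested.

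Markers of CD34+ SCs gave few calls. None of 18 tested markers of the Cd248 and Ackr3 type was called by limma or by voom on recovered reads, and the median was 0.08. Of the 18, 1 had an unadjusted p below 0.05. It was higher and also passed the adjusted p, against 2.48% of tested genes higher. None of 12 markers of Inmt+ FRCs was called by either, 2 had an unadjusted p below 0.05, and the median was 0.16. Cd34 itself had 567, 699 and 592 RPKM in SPF and 578, 568 and 585 RPKM in GF libraries (0.10 ± 0.20, limma adjusted p = 0.868). Of 13 tested markers of the Aldh1a2 and Gdf10 type 1 was called higher, Aldh1a2, against 0.236% of all tested genes. Adjusted p alone passed for 3, all higher, against 2.48% of tested genes. The median was 0.02, with 8 positive and 5 negative changes, and Gdf10 was at 0.01 (limma adjusted p = 0.988). These subset lists follow subsets named by the study and are no independent evidence of a direction.

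Aldh1a2, which makes retinoic acid from retinal, had 24.5, 57.02 and 35.6 RPKM in SPF and 6.68, 24.01 and 13.9 RPKM in GF libraries. Its change was 1.41 ± 0.33 (limma adjusted p = 0.0224), with the lowest SPF library just above the highest GF library. It was not called without SPF replicate 2 (1.11, limma adjusted p = 0.0994), SPF replicate 3 (adjusted p = 0.0675), GF replicate 1 (0.97, adjusted p = 0.0829) or GF replicate 3 (adjusted p = 0.0738). Lrat, which stores retinol as esters, was lower, at 1.42, 0.731 and 1.09 RPKM in SPF and 4.52, 2.26 and 4.14 RPKM in GF libraries (-1.14 ± 0.21, limma adjusted p = 0.00526). Without GF replicate 1 its change was -0.99. Of the 13 tested genes of retinoid metabolism these 2 were called, 1 higher against 0.236% of all tested genes and 1 lower against 0.482%. The gut mesoderm factor gene Nkx2-3 had 41.6, 33.8 and 35 RPKM in SPF and 21.9, 24.9 and 22.1 RPKM in GF libraries (0.65 ± 0.11, limma adjusted p = 0.00307), a separation under 2-fold. Of 30 tested genes that the study names in its account of these cells, Ccl19 and Aldh1a2 were called, and Nkx2-3, Irf1 and Fgf7 passed the adjusted p alone. The changes of the others that passed neither ran from -0.71 (Cxcl13) to 0.73 (Inmt).

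F3, Serpine2 and Plau, genes of coagulation and plasminogen activation, were higher in SPF mice. F3, tissue factor, the membrane receptor that starts clotting by binding factor VII, had 219, 276 and 227 RPKM in SPF and 68.2, 78.3 and 69.8 RPKM in GF libraries. Its change was 1.72 ± 0.13 (limma adjusted p = 1.96e-06). F3 lies on chromosome 3 from 121723537 to 121735048. Plau, the urokinase that turns plasminogen into plasmin, was at 237, 260.5 and 231 RPKM in SPF and 85.8, 93.7 and 92.9 RPKM in GF libraries (1.41 ± 0.15, limma adjusted p = 6.28e-05). Serpine2, an inhibitor of thrombin and urokinase also called protease nexin 1, had 17.96, 28.3 and 20.6 RPKM in SPF and 4.66, 8.29 and 5.62 RPKM in GF libraries (1.70 ± 0.20, limma adjusted p = 0.000181). All 3 genes were higher in each SPF library than in any GF library.

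Other members of this list, which was written after the values had been seen, went both ways. Of its 14 tested genes 3 were called higher, against 0.236% of all tested genes, and 0 lower. With 7 positive and 7 negative changes its median was 0.03. The urokinase receptor gene Plaur was at -0.71 (limma adjusted p = 0.0485) and the thrombin receptor gene F2r at -0.46 (limma adjusted p = 0.0156). Of 4 tested genes of the alpha-1-antitrypsin family, also listed after the values had been seen, 3 were called lower, against 0.482% of all tested genes. The antiprotease genes Serpina1b (-1.75 ± 0.22, limma adjusted p = 0.000318), Serpina1e (-1.30) and Serpina10 (-1.27) were lower, and so, under 2-fold, was Serpina1d (-0.94). Serpina1b had 13.3, 7.49 and 10.4 RPKM in SPF and 43.2, 24.7 and 44.8 RPKM in GF libraries. Because the Serpina1 genes are near-identical copies, their reads may have been split among them.

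Signalling molecules of the BMP pathway changed in opposite directions. Id1, a direct BMP target that blocks basic helix-loop-helix factors, had 6.19, 7.72 and 5.897 RPKM in SPF and 2.52, 3.49 and 2.24 RPKM in GF libraries (1.02 ± 0.17, limma adjusted p = 0.00214). It was under 2-fold without SPF replicate 2 (0.92), GF replicate 1 (0.99) or GF replicate 3 (0.93). Past the adjusted p alone were Id4 (0.98), Id2 (0.57), the inhibitory SMAD gene Smad6 (0.83) and Fst, which encodes the activin antagonist follistatin (0.88). Bmp3, a BMP family member with antagonist activity, was lower, with 0.455, 1.06 and 1.08 RPKM in SPF and 3.69, 2.48 and 2.51 RPKM in GF libraries (-1.06 ± 0.18, limma adjusted p = 0.00214), though under 2-fold without SPF replicate 1 (-0.90) or GF replicate 1 (-0.92). With Grem1, 2 of 24 tested genes of BMP and TGF-beta signalling were called lower and 1 higher. Over all tested genes these shares were 0.482% and 0.236%.

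Among 18 tested WNT genes Sfrp4, a secreted frizzled-related modulator, was called, with 138, 161 and 141 RPKM in SPF and 59.7, 58.5 and 64.9 RPKM in GF libraries (1.25 ± 0.26, limma adjusted p = 0.0116). Wnt5a (0.87), a non-canonical ligand, and its receptor family member Fzd4 (0.74) were higher and Dkk3 (-0.80) lower at adjusted p alone. The growth factor gene Fgf7 had 12.7, 17.2 and 13.2 RPKM in SPF and 6.79, 8.27 and 6.52 RPKM in GF libraries (0.90 ± 0.15, limma adjusted p = 0.00188). Sox9, a transcription factor of cartilage and progenitor cells, was at 14.7, 15.8 and 15.2 RPKM in SPF and 4.29, 7.99 and 4.36 RPKM in GF libraries (1.35 ± 0.20, limma adjusted p = 0.000973). Hic1, a transcriptional repressor that marks quiescent mesenchymal progenitors, was at 52.7, 35.3 and 44.9 RPKM in SPF and 14.2, 26.6 and 14.6 RPKM in GF libraries (1.25 ± 0.22, limma adjusted p = 0.00367). Neither Sox9 nor Hic1 overlapped between the groups.

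Feedback inhibitors of cytokine receptors split. Socs1, which restrains JAK kinases and interferon signalling, had 42.6, 32.4 and 42.02 RPKM in SPF and 14.1, 23.4 and 16.1 RPKM in GF libraries (1.10 ± 0.19, limma adjusted p = 0.00334, and 0.96 without GF replicate 1). Socs2, induced by growth hormone through STAT5, had 2.24, 2.45 and 2.89 RPKM in SPF and 10.2, 7.81 and 10.1 RPKM in GF libraries (-1.55 ± 0.14, limma adjusted p = 1.27e-05). Of 7 tested genes of this family, listed after the values were seen, Socs1 was called higher and Socs2 lower. Over all tested genes 0.236% were called higher and 0.482% lower. The cytokine receptor gene Csf2rb2 was at 2.24, 0.9598 and 1.48 RPKM in SPF and 6.69, 2.92 and 7.04 RPKM in GF libraries (-1.31 ± 0.24, limma adjusted p = 0.00451). Its close copy Csf2rb was the only called gene whose groups overlapped, with 5.58, 2.399 and 4.73 RPKM in SPF and 15.8, 4.84 and 13.4 RPKM in GF libraries (-1.16 ± 0.31, limma adjusted p = 0.0492). That call was lost without SPF replicate 2 (-0.87), SPF replicate 3 (-1.25), GF replicate 1 (-0.86), GF replicate 3 (-0.98) or any single pLN library. Agtr2, the type 2 angiotensin receptor gene, was lower at 1.63, 2.67 and 1.83 RPKM in SPF and 9.43, 9.53 and 9.16 RPKM in GF libraries (-1.78 ± 0.14, limma adjusted p = 3.59e-06), whereas the type 1 receptor gene Agtr1a was at 0.57 (limma adjusted p = 0.0253).

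Genes of cholesterol synthesis and uptake were mostly higher in SPF mice, but by little. Of 22 tested members 7 passed the adjusted p higher and 0 lower, against 2.48% of all tested genes higher, and the list median was 0.34. Only Insig1, which holds back the processing of sterol-regulated transcription factors when sterols abound and is itself their target, was called, with 14.2, 20.4 and 12.96 RPKM in SPF and 5.83, 6.92 and 6.06 RPKM in GF libraries (1.19 ± 0.16, limma adjusted p = 0.000513). Fdft1, squalene synthase, was at 0.92 (limma adjusted p = 0.0005) and the synthase gene Hmgcs1 at 0.88. The RefSeq promoter window of Insig1 is shown because it was the single higher gene with an E-box (capitals; GRCm38.p6, plus strand, chr5:28071162-28071461).
Insig1: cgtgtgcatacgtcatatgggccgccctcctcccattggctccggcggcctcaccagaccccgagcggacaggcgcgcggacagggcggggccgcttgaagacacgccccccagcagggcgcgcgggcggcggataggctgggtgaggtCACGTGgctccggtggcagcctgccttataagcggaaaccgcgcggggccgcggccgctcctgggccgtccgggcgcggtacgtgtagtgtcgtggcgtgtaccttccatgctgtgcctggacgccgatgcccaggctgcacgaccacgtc
The letters begin 101 bases before the start. A sterol regulatory element, searched as TCACNCCAC on both strands, was found in no window of a gene called higher and in 1.24% of all windows.

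Heat shock genes leaned lower. Of 18 tested members 1 was called lower, against 0.482% of all tested genes. The adjusted p passed for 3 lower and 0 higher, against 2.06% and 2.48% of all tested genes. Of the 18, 1 had a positive change, at a list median of -0.32. Hsph1, a nucleotide exchange factor of HSP70, had 8.37, 7.001 and 7.23 RPKM in SPF and 20.8, 20.3 and 19.7 RPKM in GF libraries. Its groups were far apart (-1.32 ± 0.34, limma adjusted p = 0.0401), while its pLN libraries, which share the estimate of the spread, scattered from 10.5 to 50.00 RPKM. The call was lost without any one of the 6 mLN libraries, with limma adjusted p from 0.0758 without SPF replicate 1 to 0.119 without GF replicate 3, and without pLN SPF replicate 3, pLN GF replicate 2 or pLN GF replicate 3. Its RefSeq window (GRCm38.p6, minus strand, chr5:149636287-149636586) holds a heat shock element, searched on both strands as GAA, TTC and GAA with 2 free bases after each of the first pair, and shown in capitals.
Hsph1: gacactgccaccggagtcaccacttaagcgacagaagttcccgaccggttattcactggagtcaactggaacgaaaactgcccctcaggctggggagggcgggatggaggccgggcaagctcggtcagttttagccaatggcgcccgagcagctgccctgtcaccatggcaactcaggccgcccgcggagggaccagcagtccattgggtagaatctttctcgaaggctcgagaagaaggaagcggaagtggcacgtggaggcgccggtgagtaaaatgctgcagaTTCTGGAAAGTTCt
The match starts 36 bases after the start site, on the opposite strand of the gene. These letters are in 0.603% of all windows.

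The cold-inducible RNA-binding protein gene Cirbp, which rises when body temperature falls, had 33.2, 35.7 and 35.5 RPKM in SPF and 17.02, 15 and 17.7 RPKM in GF libraries (1.03 ± 0.12, limma adjusted p = 0.000163). Without GF replicate 2 it was 0.96. Srsf5, a splicing factor gene of the same response, was at 0.85 (limma adjusted p = 0.000817), whereas Rbm3, the other classical member, had 8.91, 10.03 and 8.86 RPKM in SPF and 8.63, 7.65 and 7.88 RPKM in GF libraries (0.18 ± 0.12, limma adjusted p = 0.488). Immediate early genes, which digestion of tissue can induce, showed 1 called higher, the cytoskeletal gene Arc, and 1 called lower, Ctgf, among 25 tested. Over all tested genes these shares were 0.236% and 0.482%. The adjusted p passed for 2 higher and 2 lower, against 2.48% and 2.06% of all tested genes. An unadjusted p below 0.05 was found for 7 of the 25, against 16.3%. Arc had 14.01, 15.6 and 15.9 RPKM in SPF and 6.403, 9.66 and 5.41 RPKM in GF libraries (1.02 ± 0.16, limma adjusted p = 0.00143), and was under 2-fold without SPF replicate 3 (0.99), GF replicate 1 (0.97) or GF replicate 3 (0.86). Ctgf, a matricellular target of the YAP pathway, had 25.5, 20.9 and 24.1 RPKM in SPF and 58.2, 63.7 and 58.1 RPKM in GF libraries (-1.32 ± 0.17, limma adjusted p = 0.000295). Of 12 tested YAP targets Ctgf was the only one called, against 0.482% of all tested genes called lower.

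Of 39 tested interferon response genes none was called by limma or by voom on recovered reads, 22 had an unadjusted p below 0.05, against 16.3% of all tested genes, and all changes were under 2-fold, with 36 positive changes, a median of 0.37 and a range from -0.12 to 0.92. Past the adjusted p alone 5 were higher, which is to be read against 2.48% of all tested genes. Irf1, a transcription factor induced by interferon gamma, had 128, 148 and 136 RPKM in SPF and 77.8, 80.95 and 74.7 RPKM in GF libraries (0.81 ± 0.14, limma adjusted p = 0.00263). The immunity-related GTPase genes Irgm1 (0.71), Irgm2 (0.51) and Igtp (0.50) and the guanylate-binding protein gene Gbp2 (0.42) were the others. Irf3 had 14.3, 13.4 and 16.1 RPKM in SPF and 13.1, 17.5 and 14.6 RPKM in GF libraries (-0.04 ± 0.13, limma adjusted p = 0.917), and Cxcl9 was near 1 RPKM in both groups.

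Of 20 tested genes of microbial sensing none was called by limma or by voom on recovered reads, and 7 had an unadjusted p below 0.05, again to be read against 16.3%. Adjusted p alone passed for 3 higher and 0 lower, against 2.48% of tested genes higher. The list median was 0.15, with 13 positive and 7 negative changes. Lbp, which hands lipopolysaccharide to its receptor, was at 0.76 (limma adjusted p = 0.0157), the signalling kinase gene Irak2 at 0.59 and the lipopeptide receptor gene Tlr2 at 0.54. Lbp had 65.4, 66.7 and 68.3 RPKM in SPF and 37.8, 40.02 and 39.3 RPKM in GF libraries. Among 14 inflammatory chemokines and cytokines only Il34, a ligand of the CSF1 receptor, passed the adjusted p (0.95, limma adjusted p = 0.00116), and none was called. At an unadjusted p below 0.05 there were 3, and voom on recovered reads called 1 higher. Il6 had 84.8, 67.6 and 82.7 RPKM in SPF and 80.4, 72.6 and 77.9 RPKM in GF libraries (0.02 ± 0.28, limma adjusted p = 0.979), Cxcl1 569.8, 500.1 and 610.3 RPKM in SPF and 421, 474 and 410.2 RPKM in GF libraries (0.36 ± 0.19, limma adjusted p = 0.381), and Ccl2 59.5, 44.1 and 51.3 RPKM in SPF and 46, 45.2 and 41.4 RPKM in GF libraries (0.21 ± 0.18, limma adjusted p = 0.609). A p that misses the threshold does not show that these levels were equal.

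Large housekeeping lists showed no calls. None of 79 cytosolic ribosomal protein genes (median -0.17) and none of 73 nuclear genes of the respiratory chain (median -0.12) passed even the adjusted p alone. Voom called none of them, and 1 ribosomal and 0 respiratory genes had an unadjusted p below 0.05. Small changes lay mostly on 1 side, with 75 negative and 4 positive among ribosomal genes. Among respiratory genes 60 were negative and 13 positive. Of 23 tested collagens limma called none and voom 1 higher, and 7 had an unadjusted p below 0.05 (16.3% over all tested genes). The adjusted p passed for 2 higher and 2 lower, against 2.48% and 2.06% of all tested genes. Among them were Col14a1 at -0.80 and Col4a3 at 0.96. Among 31 elastic fibre and matricellular genes Mfap4, a microfibril-associated protein, was called lower. It had 21.7, 13.96 and 20.4 RPKM in SPF and 41.1, 37.2 and 43.2 RPKM in GF libraries (-1.10 ± 0.17, limma adjusted p = 0.00113, and -0.91 without SPF replicate 2). Among 16 tested genes of unfolded protein and amino acid stress, with a median of -0.11 and 5 positive changes, none was called by limma or voom and 6 had an unadjusted p below 0.05. Past the adjusted p alone, against 2.06% of tested genes lower, were the endoplasmic reticulum genes Sdf2l1 (-0.93), Hsp90b1 (-0.68), Pdia6 (-0.68) and Pdia4 (-0.53). Of 6 tested genes of MHC class II presentation only the invariant chain gene Cd74 passed it (-0.98, limma adjusted p = 0.0194), and voom called 1 lower.

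**Figure D3:**
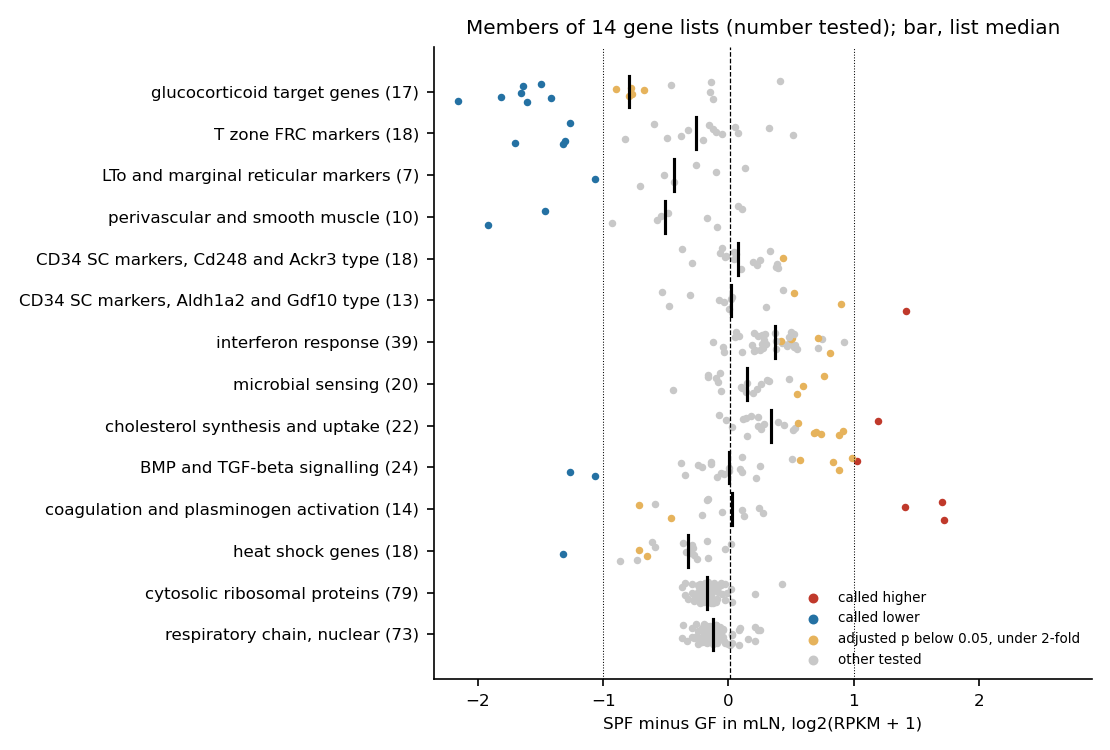
Change of each tested member of 14 gene lists between SPF and GF mLN (x axis, SPF minus GF, log2(RPKM + 1)), with 1 row per list and the number tested in brackets. Black bars are list medians, the dashed line is the median of all tested genes and dotted lines mark 2-fold. Of the lists drawn glucocorticoid targets have the lowest median, -0.80, whereas ribosomal and respiratory genes have medians of -0.17 and -0.12.

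The tested gene with the largest change was Zhx2, a zinc finger and homeobox repressor known to silence fetal genes in mouse liver and known as a locus that differs between BALB/c substrains. It had 8.27, 8.47 and 8.47 RPKM in SPF against 0.668, 0.4304 and 0.3896 RPKM in GF libraries, a difference of 2.66 ± 0.11 (limma adjusted p = 1.7e-09). In recovered reads this was 358, 360 and 439 in SPF against 29, 33 and 19 in GF libraries. Zhx2 lies on chromosome 15 from 57694665 to 57839832. Its family members did not follow, with Zhx1 at 0.14 (limma adjusted p = 0.677) and Zhx3 at -0.36 (limma adjusted p = 0.149). The labels give the strain as BALB/c without a substrain.

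The non-coding transcript G530011O06Rik had 5.14, 5.36 and 5.85 RPKM in SPF and 0.847, 0.432 and 0.453 RPKM in GF libraries (2.04 ± 0.19, limma adjusted p = 1.27e-05), on chromosome X from 169975043 to 169978917. Gm12505, a long intergenic non-coding RNA on chromosome 4 from 55410443 to 55418842, was the lowest gene, with 32.2, 31.3 and 36.5 RPKM in SPF and 188, 206 and 177 RPKM in GF libraries (-2.48 ± 0.18, limma adjusted p = 1.96e-06). Glo1, glyoxalase 1, which removes methylglyoxal, had 49.4, 58.4 and 54.9 RPKM in SPF and 22.1, 26.5 and 26.2 RPKM in GF libraries (1.09 ± 0.12, limma adjusted p = 6.16e-05). In all 3 genes the libraries of a group lay close together and far from the other group.

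Thy1, the CD90 gene by whose allele the SPF strain is named, was lower, with 6.41, 3.501 and 5.55 RPKM in SPF and 14, 20.5 and 16.4 RPKM in GF libraries (-1.56 ± 0.23, limma adjusted p = 0.000982). It lies on chromosome 9 from 44043384 to 44048579. Of the 51 tested genes that start within 5 Mb of Thy1, 5 were called, which is 9.80% against 0.717% of all tested genes. They were Thy1 itself, Oaf, Fxyd6, Tagln and Zbtb16. Adjusted p alone passed for 11 of the 51, which is 21.6% against 4.54% of all tested genes. Within 20 Mb of Thy1 the same 5 were called among 180 tested genes, 2.78%. These windows were set after the values had been seen and carry no test.

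Oaf, whose product is secreted, was the second highest gene of all, with 79.4, 85.5 and 73.1 RPKM in SPF and 11.99, 23.2 and 14.8 RPKM in GF libraries (2.23 ± 0.26, limma adjusted p = 0.000163). Fxyd6, a regulator of the sodium pump, had 3.897, 1.72 and 4.15 RPKM in SPF and 8.67, 6.503 and 7.92 RPKM in GF libraries (-1.08 ± 0.21, limma adjusted p = 0.00634), and was under 2-fold without SPF replicate 2 (-0.78) or GF replicate 1 (-0.998). Zbtb16 and Tagln, counted above among glucocorticoid targets and contractile genes, are thus also neighbours of Thy1. Whether sequence differences between the colonies near Thy1 contribute to these values was not tested. Without Zbtb16, 6 of 16 tested glucocorticoid targets were called lower.

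**Figure D4:**
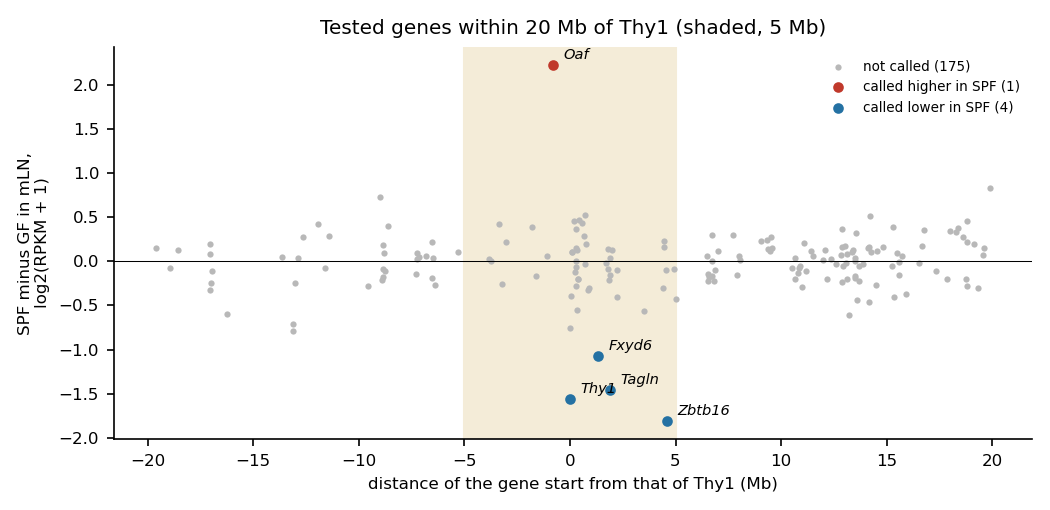
Change of tested genes between SPF and GF mLN (y axis, SPF minus GF, log2(RPKM + 1)) against the distance of the gene start from that of Thy1 (x axis, Mb), with the 5 Mb on either side shaded. Oaf lies above and Fxyd6, Tagln, Thy1 and Zbtb16 lie below the other genes, all inside the shaded stretch.

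The remaining called genes belong to no list used here. Akr1c14, a reductase of steroid hormones, had 1.803, 3.21 and 2.43 RPKM in SPF and 11.9, 8.96 and 12.1 RPKM in GF libraries (-1.79 ± 0.19, limma adjusted p = 5.22e-05). Slc10a6, a carrier of sulphated steroids, was at 12.9, 11.1 and 14.8 RPKM in SPF and 36.5, 36.6 and 35.03 RPKM in GF libraries (-1.42 ± 0.11, limma adjusted p = 3.87e-06). Bcl6, a transcriptional repressor, was at 7.15, 3.77 and 5.41 RPKM in SPF and 16.4, 11.2 and 14.8 RPKM in GF libraries (-1.25 ± 0.20, limma adjusted p = 0.00176). All 3 were lower in each SPF library than in any GF library. Slc10a6 was the single called gene whose RefSeq window (GRCm38.p6, minus strand, chr5:103629354-103629653) held the letters of a glucocorticoid response element, searched on both strands as GNACA and TGTNC with 3 free bases between them, a search added after values had been seen.
Slc10a6: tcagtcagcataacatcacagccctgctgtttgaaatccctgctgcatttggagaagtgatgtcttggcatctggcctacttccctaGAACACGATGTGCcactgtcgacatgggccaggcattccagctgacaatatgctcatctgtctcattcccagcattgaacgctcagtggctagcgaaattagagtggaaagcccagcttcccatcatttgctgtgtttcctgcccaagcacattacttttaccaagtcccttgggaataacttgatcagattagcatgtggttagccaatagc
The match, in capitals, begins 163 bases before the start. These letters are in 0.475% of all windows and in 1 of the 31 lower genes with a window.

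Further lower genes were Fam180a (-1.82 ± 0.25, limma adjusted p = 0.000557), Fam46b (-1.46), the prostaglandin reductase gene Ptgr2 (-1.25), the small GTPase gene Arl4a (-1.29), the organic cation transporter gene Slc22a3 (-1.32), the carboxypeptidase gene Cpz (-1.32) and the methyl-CpG-binding protein gene Mbd1 (-1.22). Fam180a had 4.77, 3.77 and 2.93 RPKM in SPF and 19.9, 9.12 and 21.5 RPKM in GF libraries, and GF replicate 2 was again the lowest GF library. Closer to the thresholds lay Syt13 (-1.22, and -0.96 without GF replicate 1), Morc4 (-1.09, and -0.98 without GF replicate 2) and Slc45a3 (-1.05, under 2-fold without SPF replicate 2 at -0.96, GF replicate 1 at -0.98 or GF replicate 3 at -0.98). The desmosomal cadherin gene Dsc3 (-1.37, limma adjusted p = 0.0191) was not called without SPF replicate 2 (adjusted p = 0.0883), SPF replicate 3 (adjusted p = 0.0628), GF replicate 1 (adjusted p = 0.0918) or GF replicate 3 (adjusted p = 0.1002). Smco4 (-1.18, limma adjusted p = 0.0316) kept its call only when SPF replicate 1 was the mLN library left out, with adjusted p between 0.0628 without SPF replicate 3 and 0.108 without SPF replicate 2.

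Further higher genes were Car3, a carbonic anhydrase gene of fat and muscle, with 45.9, 51.7 and 49.6 RPKM in SPF and 12.1, 12.9 and 32.5 RPKM in GF libraries (1.45 ± 0.40, limma adjusted p = 0.0491). GF replicate 3 stood far above the other GF libraries, and the call was kept only when GF replicate 3 was the mLN library left out. It was also lost without pLN SPF replicate 3 or pLN GF replicate 3. Without GF replicate 1 the adjusted p was 0.189 and without SPF replicate 1 0.0994. Sh2d4a, an SH2 domain gene, was at 13.8, 9.43 and 12.4 RPKM in SPF and 5.75, 3.802 and 4.62 RPKM in GF libraries (1.17 ± 0.16, limma adjusted p = 0.000698). Ephb3, an ephrin receptor gene, was at 1.02, and under 2-fold without SPF replicate 1 (0.92) or GF replicate 3 (0.93). Ier5l was at 1.07, and under 2-fold without GF replicate 1 (0.89) or GF replicate 3 (0.94). Cmbl, which encodes a hydrolase that activates prodrugs, was at 1.05 and not called without SPF replicate 2 (0.93), SPF replicate 3 (limma adjusted p = 0.0512) or GF replicate 3 (0.86).

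Whether the housing difference was particular to mLN was asked with the pLN libraries. There 101 genes (1.04%) were called between SPF and GF mice in the same fit, 60 higher (0.615%) and 41 lower (0.42%). Of these, 27 were also called in mLN and in the same direction, which is 38.6% of the mLN calls and 26.7% of the pLN calls, and 0 were called in opposite directions. Among the 23 genes higher in mLN 12 were called higher in pLN too, and among the 47 lower ones 15. At adjusted p alone, which in pLN 4.02% of genes passed higher and 6.74% lower, these numbers were 18 and 21. Libraries of both nodes may come from the same mice, which the labels do not state, and they share colony and housing.

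Of the 17 tested glucocorticoid targets 6 were called lower in pLN, against 0.42% of all tested genes, and 1 higher, against 0.615%. At adjusted p alone 13 were lower and 1 higher. Tsc22d3 had 31.8, 39.4 and 34.9 RPKM in SPF and 303, 235 and 248 RPKM in GF libraries of pLN (-2.85 ± 0.13, limma adjusted p = 4.55e-09). The pLN changes of Pdk4 (-2.68), Zbtb16 (-2.39), Fkbp5 (-2.13), Per1 (-1.63) and Klf15 (-1.35) were called too, and that of Cdkn1a (-0.77) was under 2-fold. The gene called higher was Gadd45g, a stress-response gene, at 1.06 in pLN (limma adjusted p = 0.005399) and 0.41 in mLN (limma adjusted p = 0.331). F3 was higher in pLN by 2.58, Zhx2 by 2.07, Serpine2 by 1.47 and Plau by 1.29, all called. Thy1, by contrast, had 6.74, 4.66 and 4.296 RPKM in SPF and 3.75, 8.04 and 5.39 RPKM in GF libraries of pLN (-0.08 ± 0.23, limma adjusted p = 0.869), and the test of the difference between the nodes gave -1.48 ± 0.33 (limma adjusted p = 0.0903). For the T zone gene Ccl21a the pLN change was -0.69 (limma adjusted p = 0.176), and the difference between the nodes, -1.02 ± 0.44, did not pass (limma adjusted p = 0.474).

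The difference between the changes in the 2 nodes passed both thresholds in 21 genes, 0.215% of those tested, 9 of them higher (0.0922%) and 12 lower (0.123%). Of these, 4 were among the 47 genes lower in mLN (Ctgf, Cpz, Socs2 and Slc10a6) and 0 among the 23 higher ones. Ctgf had 63.7, 38.5 and 56.4 RPKM in SPF and 50.5, 37.2 and 45.7 RPKM in GF libraries of pLN (0.22 ± 0.17), and its difference between the nodes was -1.54 ± 0.23 (limma adjusted p = 0.00989). Socs2 had 3.45, 5.36 and 4.46 RPKM in SPF and 6.16, 6.29 and 5.85 RPKM in GF libraries of pLN (-0.40 ± 0.14), with a difference between the nodes of -1.15 ± 0.20 (limma adjusted p = 0.0234). In this fit, other genes that passed in mLN and not in pLN were not shown to differ between the nodes. The number of such differences depended on the fit and on single libraries, with 82 under array weights, 10 without mLN GF replicate 3 and 36 without pLN GF replicate 2.

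**Figure D5:**
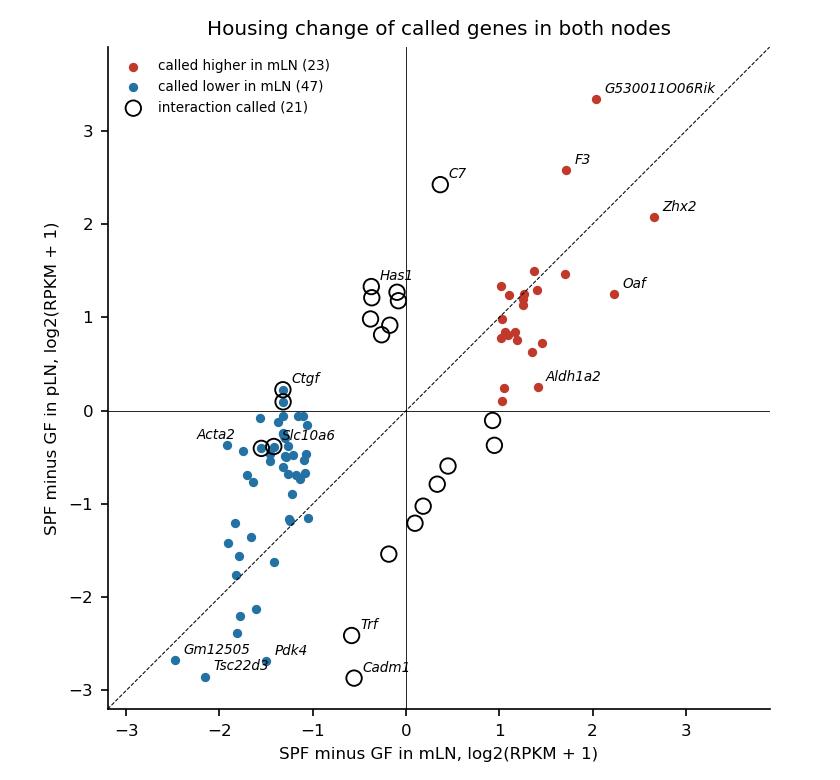
Change between SPF and GF mice in mLN (x axis) and in pLN (y axis), both SPF minus GF in log2(RPKM + 1), for the 70 genes called in mLN (red higher, blue lower) and the 21 genes whose changes differed between the nodes (open circles). The dashed line marks equal changes, all 23 red points lie above 0 on the y axis, and 45 of the 47 blue points lie below it.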

How the data were processed

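RNA from sorted SCs of 12 libraries was amplified with SMART-Seq v4, made into Nextera XT libraries and sequenced as single reads, without strand. Per the labels and methods, the authors aligned reads to GRCm38 with TopHat2, counted them with HTSeq, and deposited RPKM computed from raw counts. The deposited table also holds log2 fold changes and adjusted p-values that the authors made with DESeq2 for 4 comparisons. Neither was used here.

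The main test was limma 3.58.1 (R 4.3.3) on log2(RPKM + 1) over all 12 libraries with 4 group means, for 9758 genes with at least 1 RPKM in at least 3 libraries, adjusted by Benjamini-Hochberg over all of them. Whole reads were recovered for 99.912% of genes (relative tolerance 1e-09) and tested with voom as an alternative. Depth summed from these reads covers the listed genes only. Left out were 6 rows for which no single gene length gave whole reads in all libraries, as if columns held different genes, and, from naming, 18 symbols turned into dates.

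Members and lists were chosen with earlier results of these data known. The lists of coagulation genes, alpha-1-antitrypsin genes and SOCS genes, the windows around Thy1 and the glucocorticoid response element were added after the values were seen. The rule for named genes took the 15 called genes with the largest changes in each direction, the called members of each list, the genes the study names and, of genes that differed between the nodes, the 5 with the largest differences. The other called genes, and list members past the adjusted p alone, were added after their values were seen. Positions come from GENCODE M21 (9468 tested symbols matched), and promoters from RefSeq, where 45 of the 70 called genes had a window. Alternatives covered pseudocounts, filters, rescaling, weights, voom, replicate blocks and each library left out. The scripts were tested on simulated data. Results of some genes are not reported here.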

Additional observations from a re-analysis of the deposited data

Results flagged for a closer look

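The change between SPF and GF mice differed between mLN and pLN, by the interaction test of limma at adjusted p below 0.05 and at least 2-fold, in 9 of the named genes. Differences are the change in mLN minus that in pLN. They were -1.54 for Ctgf, -1.41 for Cpz, -1.15 for Socs2 and -1.03 for Slc10a6, all called lower in mLN. The other 5 were named for having the largest differences of the 21 genes that passed. They were 2.31 for the adhesion molecule gene Cadm1 (-0.56 in mLN and -2.87 in pLN), -2.06 for the complement gene C7 (0.37 and 2.42), 1.83 for the transferrin gene Trf (-0.58 and -2.41), -1.70 for the hyaluronan synthase gene Has1 (-0.37 and 1.33) and -1.58 for the collagen gene Col6a5 (-0.37 and 1.21). None of these 5 was called in mLN. Cadm1 had 0.297, 0.173 and 0.142 RPKM in SPF and 0.973, 0.599 and 0.753 RPKM in GF libraries of mLN, and 0.732, 0.552 and 0.299 RPKM in SPF and 11.9, 7.55 and 11.3 RPKM in GF libraries of pLN. Cadm1 starts 3.49 Mb from Thy1, inside the window of 5 Mb described above. The part of sequence differences between the colonies in its values was not tested.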

How the results depend on the processing

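Of the 70 called genes 45 passed both thresholds under every one of the 27 alternatives of the mLN fit that tested them. Stricter filters on low values left some genes untested. The call was lost under at least 1 alternative for 25, and 0 reversed. Against 70 genes (23 higher and 47 lower), a pseudocount of 0.1 gave 144 (54 and 90), voom on recovered reads 125 (48 and 77), the adjusted p alone 443 (242 and 201) and a 1.5-fold threshold 291 (149 and 142). A pseudocount of 0.5 gave 37 higher. Leaving out 1 library at a time gave 61 to 99. For the 21 differences between the nodes, array weights gave 82, the replicate block by housing and number 45, leaving out replicate 2 of both mLN groups 34, and leaving out 1 library 10 to 36. For the 101 genes of pLN, a pseudocount of 0.1 gave 170 and voom 171. Genes near 0 changed sign. Gdf10 was at -0.0029 with median-of-ratios rescaling, -0.0441 with array weights, -0.0267 with voom, -0.0757 without both replicates 2 and -0.0544 to 0.0516 without 1 library. Irf3 was at 0.0946 with array weights, 0.1231 without both replicates 2 and -0.1283 to 0.0667 without 1 library. Il6 was at -0.011 with voom and -0.0399 to 0.1211 without 1 library, Tcf4 at -0.0059 and -0.0212 to 0.0641. Cd34 was at -0.0056 without both replicates 2. Without 1 library Cxcl9 ranged from -0.2715 to 0.0264 and Ptgis from -0.0171 to 0.1357. The causes were not tested.

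Replicate numbers did not pair SPF with GF libraries in mLN (correlations of deviations -0.136, -0.102 and 0.0225). With a replicate block by number 70 genes were called and 1 of the main calls was lost, and with the block by housing and number 69 were called and 1 was lost. Same-numbered mLN and pLN libraries correlated at 0.262, 0.457 and 0.182 in SPF and 0.23, 0.218 and 0.0801 in GF mice. Differently numbered ones ranged from -0.384 to 0.304 in SPF and from -0.242 to 0.0296 in GF mice. In SPF mice the 2 ranges thus overlapped. Genes near 1 RPKM rest on few reads and limit what can be seen at this depth.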

Other observations

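For 6 rows of the table no single gene length gave whole reads in all libraries, and these rows were left out of the main fit. One of them, named Ndufa13, is listed at 67.1, 49.1 and 69.2 RPKM in SPF and 1.41, 2.72 and 2.27 RPKM in GF libraries of mLN.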
